A study of Heliconius himera and Heliconius erato lativitta and Heliconius erato petiverana with 18 samples.

Results

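Hindwings (HW) and forewings (FW) of Heliconius erato lativitta were compared by RNA sequencing. This race of a Neotropical butterfly carries red rays on the hindwing and pale patches on the forewing. The comparison took all libraries labelled with the taxon lativitta, 3 HW and 3 FW, which are 6 of the 18 libraries of the series. The other 12 came from Heliconius himera and from the race H. erato petiverana, with 3 HW and 3 FW libraries each. All wings were taken whole on day 3 after pupation from animals kept at about 27 °C, and no genetic change or treatment is named for any group. Whether the 3 libraries of a wing stem from different animals, from pools or from 1 animal is not in the labels, and neither is the sex. The p-values therefore describe library-to-library spread, which may be technical.

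The forewing and the hindwing of butterflies are serial counterparts that grow from separate imaginal discs under largely shared patterning genes. Hox genes set them apart, above all Ultrabithorax, which is known from flies, beetles and butterflies to act in the hindwing or its equivalent. In the pupal wing of a butterfly the scale cells then differentiate, before the pigments of the adult pattern become visible. The files give gene IDs with 0 gene names, so no ID is given a name or a role here, which ID stands for a Hox gene was not analysed, and the tissue label could not be checked against marker genes. In whole wings, fewer cells of a type and less RNA per cell cannot be told apart.

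The lativitta libraries differed in depth, and the wings shared most of their most abundant IDs. HW libraries held 5491810 ± 886546 gene reads and FW libraries 6355530 ± 2414380 (SD, n = 3 each), within a range of 4599197 in HW 2 to 9113600 in FW 1. At least 1 read was found for 10960 ± 160 IDs in HW and 11072 ± 283 in FW (SD, n = 3 each). The 10 most abundant IDs took 9.67% ± 0.948 of gene reads in HW and 10.7% ± 0.688 in FW (SD, n = 3 each). Of the 10 most abundant IDs in HW, 8 were also among the 10 most abundant in FW, and of the top 100 the wings shared 86. Rank correlations across the 8778 IDs tested were 0.946 to 0.973 between libraries of the same wing and 0.919 to 0.982 between wings. They were computed over genes within libraries, and genes are no replicates of a condition.

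The wing was not the main axis of variation among these libraries. The first principal component of log2 counts per 1000000 gene reads (CPM) held 53.7% of the variance and mixed the wings, with HW at 6.75, 48.0 and -18.9 and FW at -17.9, -41.0 and 23.1 in libraries 1, 2 and 3. The second component held 22.0% and also mixed them. The third, with 12.2%, placed all HW libraries on the positive side (13.2, 8.14 and 16.5) and all FW libraries on the negative side (-7.33, -6.30 and -24.2).

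**Figure D1:**
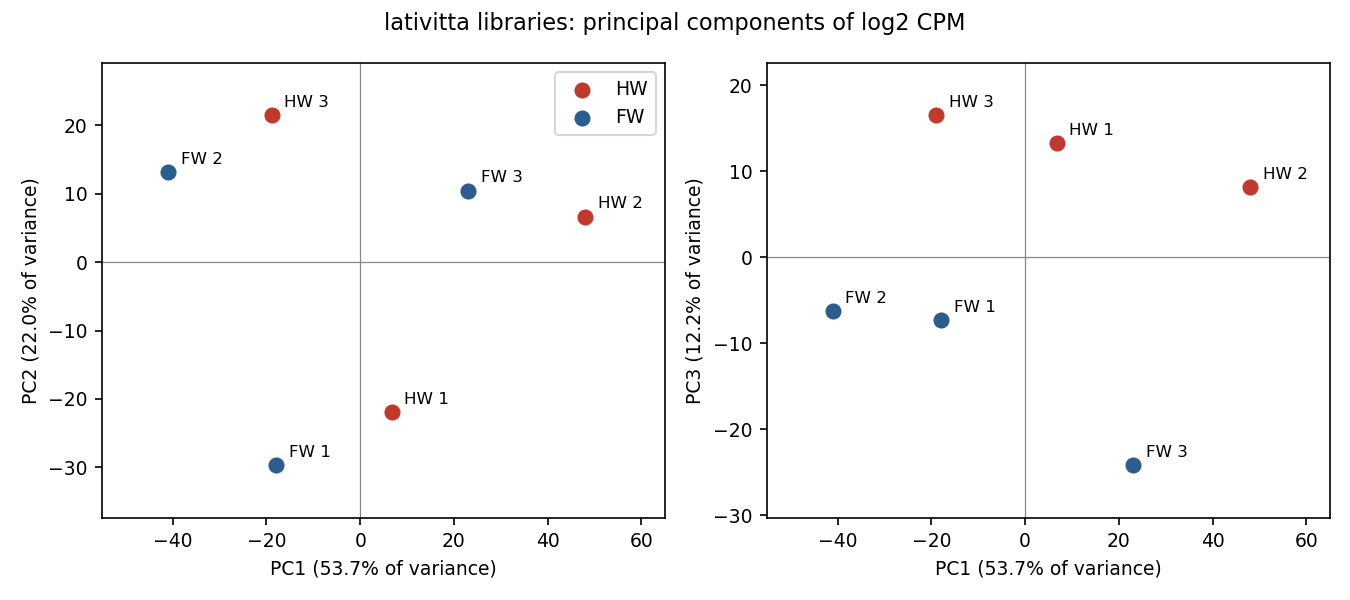
Principal component scores of the 3 HW (red) and 3 FW (blue) lativitta libraries, computed from log2 CPM with a prior count of 2. The first component (x axis, 53.7% of variance) and the second (left panel, 22.0%) mix the wings, while the third (right panel, 12.2%) puts every HW library above 0 and every FW library below it.

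A pair of consecutively numbered IDs, HEL_004329 and HEL_004330, rose in HW and was close to unread in FW. HEL_004329 was at 32.5, 27.8 and 31.8 CPM in HW 1, 2 and 3, against 0.218, 0.175 and 0 CPM in FW 1, 2 and 3. Every HW library was far above every FW library, and the FW values rest on 2, 1 and 0 reads. The HW mean was 30.7 ± 2.56 CPM and the FW mean 0.131 ± 0.116 CPM (SD, n = 3 each), scaled by TMM factors. HW held 498 reads and FW 3 reads, and divided by the summed TMM-scaled library sizes of each wing these give an HW over FW ratio of 202, with an exact 95% interval of 68.8 to 984 for counting error alone. The log2 fold change was 7.47 (SE 0.37, edgeR quasi-likelihood test with Benjamini-Hochberg adjustment, adjusted p = 0.0014). DESeq2 gave a larger SE, 0.88, at a log2 fold change of 7.67.

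HEL_004330 was at 15.9, 10.9 and 16.5 CPM in HW 1, 2 and 3, against 0.109, 0 and 0 CPM in FW 1, 2 and 3. It was lower than HEL_004329 in every HW library in reads, with 97, 45 and 96 against 198, 115 and 185, although gene lengths are not known here and levels of different IDs cannot be ranked. The HW mean was 14.4 ± 3.11 CPM and the FW mean 0.0364 ± 0.0630 CPM (SD, n = 3 each). The 238 HW reads and 1 FW read, scaled the same way, give a ratio of 290 (exact 95% interval 51.6 to 11504, for counting error alone), and the log2 fold change was 7.67 (SE 0.56, edgeR adjusted p = 0.010). This SE is computed from the test statistic and understates the counting error of 1 FW read. DESeq2 gave an SE of 1.23 at a log2 fold change of 7.99. The HEL_004330 call needed nearly all libraries. It was lost without FW 1 (adjusted p = 0.253), FW 2 (0.0714), FW 3 (0.0940), HW 1 (0.121) or HW 3 (0.0754) and held without HW 2 (0.0362), while HEL_004329 passed in each of these 6 fits (0.0028 to 0.0277). The HEL_004330 log2 fold change was 7.30 to 7.86 in the fits that kept FW 1 and 9.26 without it, where FW held 0 reads, so its size rests on 1 FW read. The neighbours of the pair in number did not share the pattern. The ID numbered 1 above it averaged 29.3 CPM in HW and 25.7 CPM in FW (log2 fold change 0.19, SE 0.17, adjusted p = 0.999), and the ID numbered 1 below it had 2 reads in HW and 2 in FW.

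**Figure D2:**
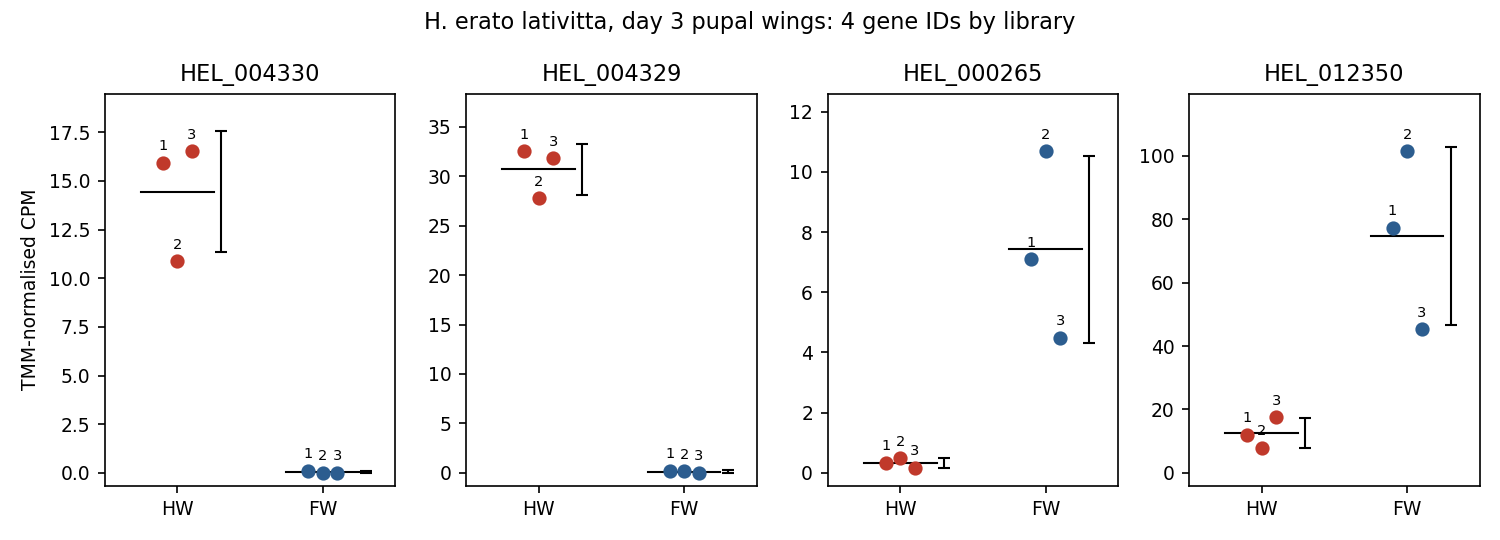
TMM-normalised CPM (y axes, each to its own scale from 0) of 4 IDs in the lativitta libraries, with HW in red and FW in blue, library numbers above the points, horizontal lines at group means and bars of 1 SD (n = 3). HEL_004330 and HEL_004329 lie at 10.9 CPM or more in HW and at 0.218 CPM or less in FW, whereas HEL_000265 and HEL_012350 lie higher in all FW libraries than in all HW libraries.

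These were the only IDs that passed in edgeR, 2 higher and 0 lower in HW of 8778 tested, a called share of 0.0228%. At an unadjusted p under 0.05 there were 112 higher and 133 lower. No other ID with at least 100 reads in HW, and a read in each HW library, had 3 or fewer reads in FW. The opposite pattern, at least 100 reads in FW and 3 or fewer in HW, was found for 0 IDs. With 0 reads in the other wing and a read in each library of their own, 17 IDs were read in HW alone and 29 in FW alone, each with fewer than 30 reads. DESeq2 on the same libraries and IDs called 23, with 12 higher and 11 lower in HW.

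In the direction of FW, HEL_000265 and HEL_012350 had the smallest unadjusted p-values but did not pass. HEL_000265 was at 0.328, 0.483 and 0.172 CPM in HW 1, 2 and 3, against 7.09, 10.7 and 4.49 CPM in FW 1, 2 and 3. Every HW value lay below every FW value. The HW libraries held 5 reads of it, at most 2 in any of them and so below 3 reads per library, and the FW libraries 147. Its HW mean was 0.328 ± 0.155 CPM and its FW mean 7.42 ± 3.11 CPM (SD, n = 3 each), with a log2 fold change of -4.48 (SE 0.54, edgeR adjusted p = 0.199). Fitted with all 18 libraries it passed (log2 fold change -4.44, SE 0.61, adjusted p = 0.0147), as it did with DESeq2 (adjusted p = 4.15e-05). The fit of 18 libraries takes its spread from the other taxa as well. Among the lativitta libraries alone, it passed in no edgeR fit that left out 1 library (adjusted p = 0.260 to 0.9998).

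HEL_012350 was more abundant, at 11.99, 7.97 and 17.6 CPM in HW 1, 2 and 3, against 77.4, 101 and 45.3 CPM in FW 1, 2 and 3. Its groups did not overlap either. The HW mean was 12.5 ± 4.81 CPM and the FW mean 74.7 ± 28.1 CPM (SD, n = 3 each), from 208 and 1500 reads, with a log2 fold change of -2.57 (SE 0.38, edgeR adjusted p = 0.567). DESeq2 called it (adjusted p = 4.56e-08), and the fit of all 18 libraries did not (adjusted p = 1). Within each wing its level ran with the first principal component, which was most negative in FW 2 and HW 3, where it was highest, and most positive in FW 3 and HW 2, where it was lowest. The part of that axis in its wing difference was not tested.

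Across the whole table the wings were close to each other. The median log2 fold change was -0.01, the quartiles lay at -0.15 and 0.14, and 97.6% lay within 2-fold. TMM scaling itself brings the median near 0, so the spread and not the median describes the likeness. An unadjusted edgeR p under 0.05 was found for 245 IDs (2.79%), 112 higher in HW (1.28%) and 133 lower (1.52%). This share was below the 4.49% found among unchanged IDs in simulated counts of the 6 libraries. Those counts were drawn independently for each ID, with no axis shared between libraries such as the first principal component. The shares therefore cannot decide how many IDs differ. An unadjusted p makes no allowance for the number of IDs tested, so the 245 IDs are not a count of wing differences. The median log2 fold changes of the higher and lower IDs were 0.71 and -0.84, so most were smaller than 2-fold. The count of 245 became 726 without FW 3, 456 without HW 3, 152 without HW 2 and 133 without FW 2, and it was 68 in the fit of all 18 libraries. All HW libraries lay above all FW libraries for 263 IDs (3%) and below them for 328 (3.74%), which describes these libraries and is not a count of wing differences.

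**Figure D3:**
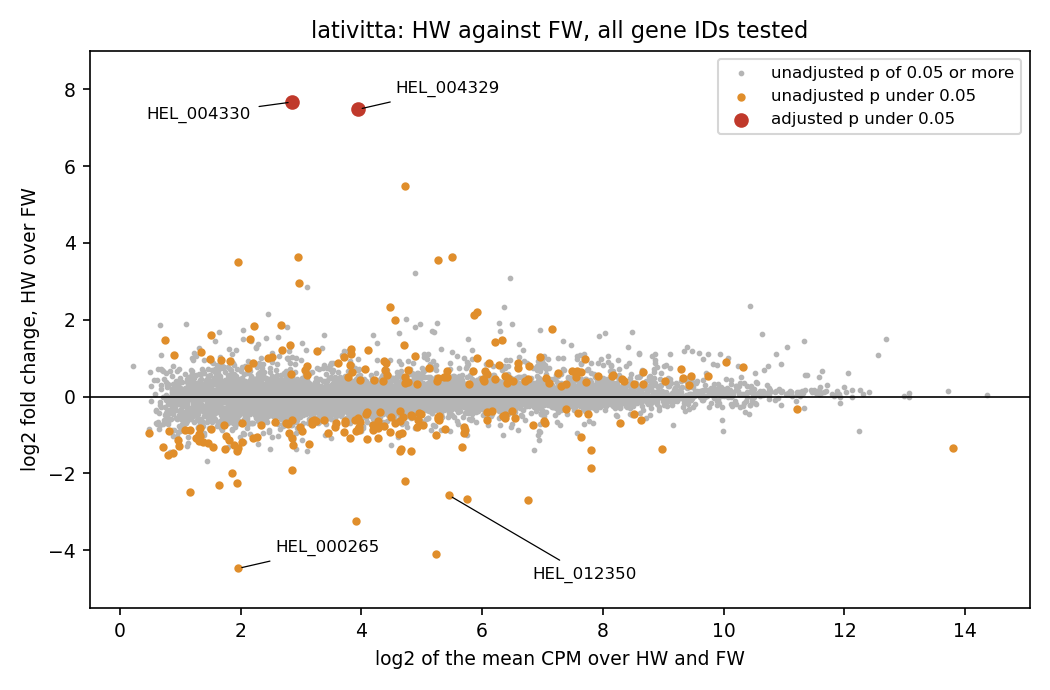
Log2 fold change of HW over FW (y axis) against the log2 of the mean CPM of both wings (x axis) for the 8778 IDs tested in lativitta. Red points passed at an adjusted p under 0.05, orange points had an unadjusted p under 0.05 (245 IDs with the red ones) and grey points did not. The 2 called IDs stand above all others at log2 fold changes of 7.47 and 7.67, and HEL_000265 lies lowest at -4.48.

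IDs with larger differences were not spread evenly over the libraries. More than 2-fold higher in HW were 135 IDs, of which 25 (18.5%, against 6.73% of all IDs tested) had groups that did not overlap and 35 (25.9%, against 2.79%) had an unadjusted p under 0.05. These IDs, like the lower ones below, were picked by the size of the same difference. The choice itself raises such shares, so they are a description only. HW 2 was the highest library for 105 of the 135, against 18 for HW 1, 12 for HW 3 and 0 for each FW library. Over all 8778 IDs, where FW libraries could also be highest, HW 2 was the highest for 2111, HW 1 for 939 and HW 3 for 1133. Without HW 2, the number above 2-fold was 74, whereas it was 357 without FW 3, 271 without HW 3 and 213 without HW 1. More than 2-fold lower in HW were 73 IDs, of which 41 (56.2%) had groups that did not overlap and 48 (65.8%) had an unadjusted p under 0.05. FW 2 was the highest library for 45 of these, against 16 for FW 1 and 12 for FW 3. Of all IDs, FW 2 was the highest for 1859, FW 1 for 1446 and FW 3 for 1290. The number more than 2-fold lower was 74 without FW 2, so it did not fall when that library was left out. It was 88 without FW 1, 101 without HW 2, 145 without HW 1, 162 without FW 3 and 185 without HW 3. HW 2 and FW 2 also lay at opposite ends of the first principal component, and their part in these differences was not tested.

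Differences of more than 4-fold were fewer. Of 19 IDs more than 4-fold higher in HW, 8 had groups that did not overlap and 11 an unadjusted p under 0.05. Of 10 IDs more than 4-fold lower, all 10 had groups that did not overlap and an unadjusted p under 0.05. These IDs were picked by the size of the same difference, so the counts are a description, beside 6.73% without overlap among all IDs tested. The 23 IDs that DESeq2 called all had an unadjusted edgeR p under 0.05 and the same sign in edgeR. Their edgeR log2 fold changes were 0.68 to 7.67 for those higher in HW (median 1.61) and -4.48 to -1.36 for those lower (median -2.57).

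The size of the differences varied with abundance less than their error did. IDs at 1 to 10 CPM had a median absolute log2 fold change of 0.25 and a median SE of 0.37. At 10 to 100 CPM these were 0.12 and 0.20, at 100 to 1000 CPM 0.13 and 0.16, and at 1000 CPM or more 0.15 and 0.15. An unadjusted p under 0.05 was found for 25 IDs higher and 50 lower in HW among the 2111 at 1 to 10 CPM, and for 55 and 67 among the 4879 at 10 to 100 CPM. Among the 1628 at 100 to 1000 CPM it was 30 higher and 14 lower, and among the 160 above that 2 and 2.

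IDs with neighbouring numbers tended to have similar log2 fold changes of HW over FW, as the called pair did. The log2 fold changes of IDs 1 number apart correlated with a Pearson r of 0.31 (Spearman rho 0.21, 6634 pairs), or 0.27 without the called IDs. At 2 numbers apart r was 0.12, at 5 apart 0.064, at 10 apart 0.027 and at 20 apart -0.0082. The same correlation for abundance, the log2 of the mean CPM, was 0.15 at 1 apart and 0.079 at 2 apart. All pairs share the same 6 libraries, and whether the numbers follow positions in a genome, or whether neighbours are pieces of 1 gene, was not analysed here. Other groupings of the libraries were not compared, so the likeness of neighbours cannot be credited to the wing. Of 218 IDs with an unadjusted p under 0.05 and a neighbour in number that was tested, 51 (23.4%) had a neighbour with such a p and the same sign. Among all 8154 IDs with a tested neighbour, 196 (2.40%) had a neighbour of that kind with their own sign.

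**Figure D4:**
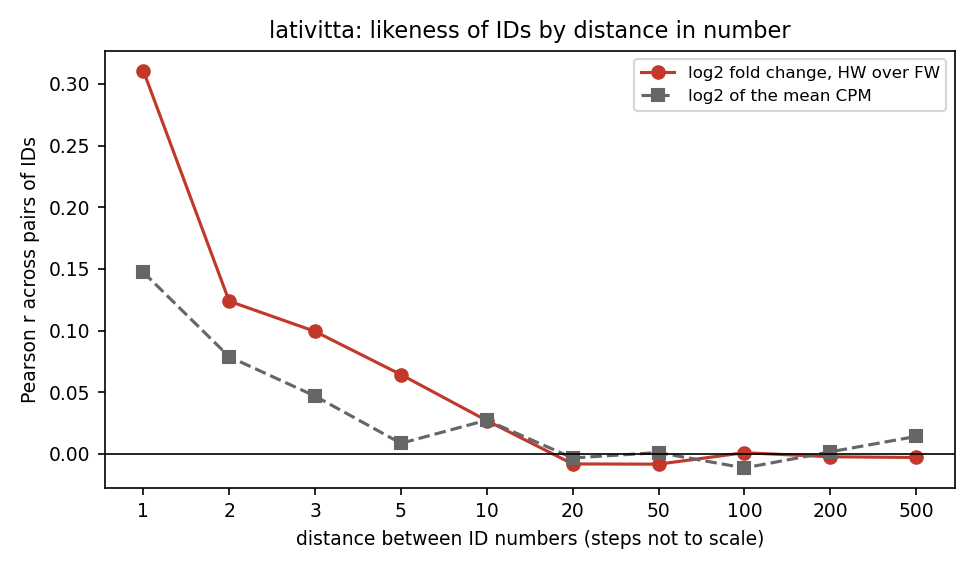
Pearson correlation across pairs of IDs (y axis) against the distance between their numbers (x axis, steps not to scale), for the log2 fold change of HW over FW (red circles) and for the log2 of the mean CPM (grey squares) in lativitta. Both are highest at a distance of 1, at 0.31 and 0.15, and lie near 0 from a distance of 20 on.

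The other taxa were used to see which of these wing differences were seen outside lativitta, with CPM scaled over all 18 libraries, a scale on which lativitta values are lower than above. HEL_004329 averaged 20.7 ± 1.69 CPM in lativitta HW and 0.0882 ± 0.0782 in lativitta FW, 17.3 ± 7.97 in himera HW and 0.0714 ± 0.124 in himera FW, and 21.5 ± 2.36 in petiverana HW and 0.137 ± 0.238 in petiverana FW (SD, n = 3 each). HEL_004330 averaged 9.72 ± 2.06 CPM in lativitta HW, 8.04 ± 1.87 in himera HW and 7.66 ± 2.16 in petiverana HW, with 1 read in the FW group of each taxon (SD, n = 3 each). Their lativitta fold changes were not distinguishable from the mean of the other taxa. The log2 difference in fold change was 0.17 (SE 1.22, edgeR adjusted p = 0.99996) for HEL_004329 and 0.82 (SE 1.201, adjusted p = 0.99996) for HEL_004330. Both values moved with single libraries. The HEL_004329 difference was -0.21 without lativitta FW 3 and 0.72 without lativitta FW 1. The HEL_004330 difference was 2.42 without lativitta FW 1 and 0.0067 without the number 1 libraries of the other taxa.

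HEL_000265 had unlike wing values in the taxa. In lativitta it averaged 0.221 ± 0.106 CPM in HW and 4.97 ± 2.01 in FW, and in himera 1.03 ± 0.146 in HW and 6.45 ± 3.78 in FW, with no overlap between wings in either (SD, n = 3 each). In petiverana the wings overlapped, with 7.31, 4.54 and 2.88 CPM in HW 1, 2 and 3 and 6.04, 4.30 and 3.09 CPM in FW 1, 2 and 3. The lativitta log2 fold change was 3.18 below the mean of the other taxa (-3.18, SE 0.70, unadjusted p = 0.000438), which did not pass the edgeR adjustment over 9957 IDs (adjusted p = 0.99996). HEL_012350 had its highest values in lativitta FW, where it was at 52.9, 66.8 and 30.5 CPM, against 7.77, 6.42 and 13.8 CPM in himera FW and 13.7, 0.861 and 0.825 CPM in petiverana FW. In HW it was at 8.11, 5.39 and 11.7 CPM in lativitta, against 2.60, 3.14 and 3.66 CPM in himera and 13.4, 0.182 and 0.576 CPM in petiverana. Its log2 fold change differed from the mean of the other taxa by -1.72 (SE 1.33, edgeR adjusted p = 0.99996).

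**Figure D5:**
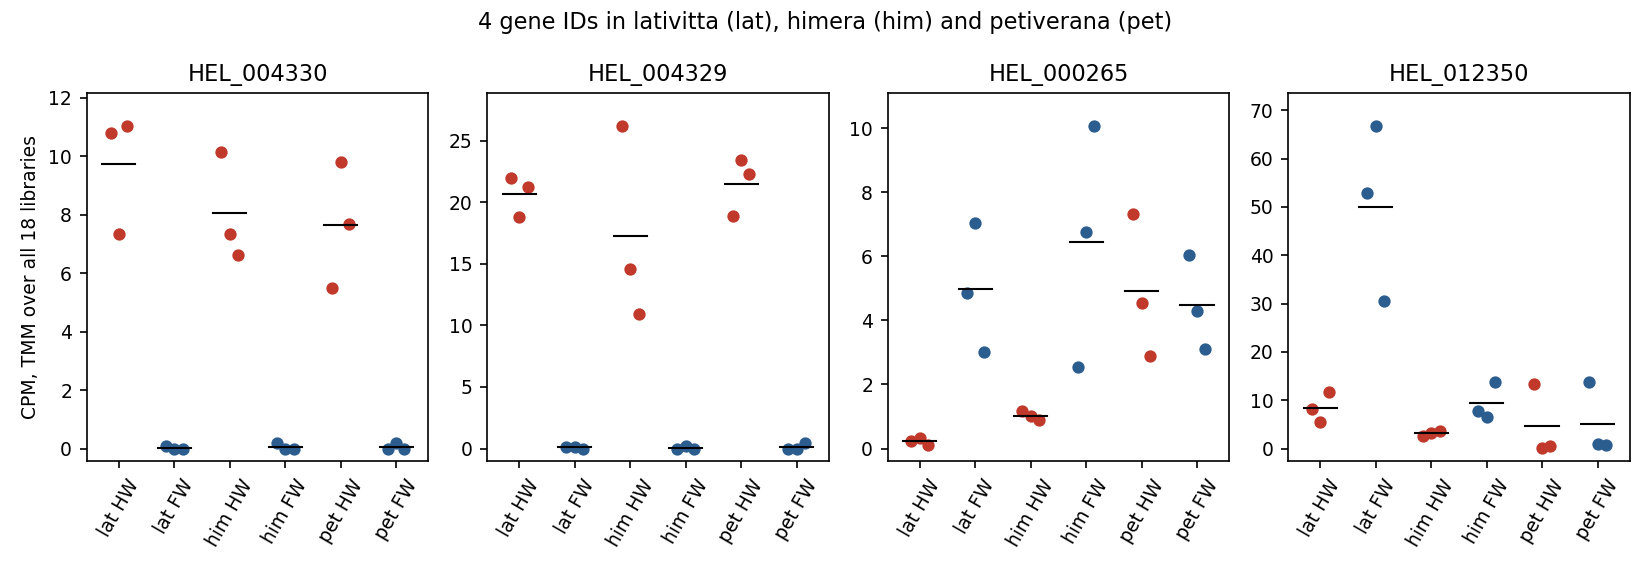
CPM scaled by TMM over all 18 libraries (y axes, each to its own scale from 0) of 4 IDs in HW (red) and FW (blue) of lativitta (lat), himera (him) and petiverana (pet), with points for libraries 1, 2 and 3 from left to right and lines at group means. HEL_004330 and HEL_004329 lie near 0 in FW of every taxon, HEL_000265 is low in HW of lativitta and himera but not of petiverana, and HEL_012350 is highest in lativitta FW.

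Over the table as a whole, 0 of 9957 IDs had a lativitta wing difference that differed from the mean of the other taxa in edgeR, and 49 (0.492%) had an unadjusted p under 0.05. The count of 49 became 110 without lativitta FW 3 and 80 without lativitta HW 3. DESeq2 called 11. Number 1 libraries of himera and of petiverana stood apart from their groups in earlier results of these data. A fit that left them out gave 1 call and 380 IDs with an unadjusted p under 0.05. Simulated counts over the 9957 IDs held 200 changed IDs, none of them from the least abundant. There this comparison found 4% of the differences set at 2-fold, 38% of those at 4-fold, 62% at 8-fold and 74% at 16-fold. The count of 0 is therefore no evidence that the wings differed equally in all taxa. Of the 112 IDs higher in lativitta HW at an unadjusted p under 0.05, 71 (63.4%) were also higher in himera HW and 75 (67.0%) in petiverana HW. Among all 4198 IDs that were higher in lativitta HW these shares were 53.1% and 60.2%. Of the 133 IDs lower in lativitta HW, 75 (56.4%) were also lower in himera HW and 78 (58.6%) in petiverana HW, against 53.2% and 48.9% of all 4580 that were lower. The differences were smaller there, with medians of 0.12 in himera and 0.11 in petiverana for the higher IDs, against 0.71 in lativitta, where they were selected, and of -0.07 and -0.11 for the lower ones, against -0.84.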

How the data were processed

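For each library the authors deposited 1 file of raw read counts by gene ID, with no normalisation. The submitters' processing notes name TopHat, bedtools and DESeq2 with neither version nor role, and RNA was poly-A selected, per the labels' protocols. Strandedness, annotation and genome build were likewise not given in the sources used here. IDs that overlap others or have close copies are therefore uncertain. Each file listed 14612 IDs and 5 summary rows, which were left out of library sizes and tests and held 51.1% to 57.3% of reads in the lativitta libraries.

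The analysis used edgeR 4.0.16 in R 4.3.3 (filterByExpr, TMM, estimateDisp, glmQLFit, glmQLFTest) on the 6 lativitta libraries, without a block, with Benjamini-Hochberg adjustment over the 8778 IDs kept and a threshold of 0.05. The other taxa were kept out of this fit because number 1 libraries of himera and of petiverana stood apart from their groups in earlier results of these data. In himera number 1 the 10 most abundant IDs took 30.7% (FW) and 31.9% (HW) of gene reads, against 9.67% to 12.4% in the others. On that share petiverana number 1 did not stand out. Its summary rows held 62.1% (FW) and 62.4% (HW) of reads, against 55.6% to 57.9% in the other petiverana libraries. A shared estimate of the spread would then not be that of the lativitta libraries. The common dispersion was 0.0736 here and 0.361 with all 18 libraries. The comparison with other taxa was a contrast in that larger fit, over 9957 IDs. Each SE is the absolute log2 fold change over the root of F. It follows from the test, is no separate estimate of error and can be too small near 0 reads. CPM are counts per 1000000 gene reads, TMM-normalised. Libraries of a wing differed by more than sampling noise, with a chi-square over its degrees of freedom of 15.9 to 58.3.

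The IDs named were, among those at 1 CPM or more, the 2 called with the largest fold change per direction, filled up with the smallest p where fewer passed. The comparison, rules and settings were chosen with earlier results of these data known. Gene lists and marker lists were not run, since the IDs carry no names. The fit was tested on simulated counts of the 6 libraries with 200 changed IDs among 8778. The changed IDs were not drawn from the least abundant ones. Recovery was 26% for 2-fold changes, 88% for 4-fold changes and 100% for 8-fold changes, and 4.49% of unchanged IDs had an unadjusted p under 0.05. With 200 changed IDs the adjusted threshold is easier to reach than with the 2 calls in the data. These shares may therefore overstate what the data could detect. In the data HEL_000577, at a log2 fold change of -4.10, had an edgeR adjusted p of 0.658. Other settings were DESeq2 1.42.0 and its size factors, other filters, other libraries in the fit, a test against a 1.5-fold change, 2 other quasi-likelihood settings, a replicate block and leaving out each library.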

Additional observations from a re-analysis of the deposited data

How the results depend on the processing

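The count of 2 called IDs was the same with median-of-ratios factors, without a filter, with a mean count of at least 10, against a 1.5-fold change, with robust=TRUE and with legacy=FALSE, the last added after seeing the data. It was 3, with 2 higher and 1 lower, in both fits with other taxa. It was 23 with DESeq2 and 1 to 2 in the fits that each left out 1 library. Whether a library number pairs the wings is not in the labels, and likeness followed the numbers only in part. Deviations from the wing means correlated at 0.64, -0.57 and -0.49 between HW and FW of number 1, 2 and 3. HW 1 was most like FW 1, while HW 3 was most like FW 2 (0.77) and HW 2 most like FW 3 (0.66). Deviations cancel out within each wing and follow the first principal component, so these correlations cannot decide whether a number marks 1 animal. With the replicate block edgeR called 0 IDs, 163 had an unadjusted p under 0.05, and HEL_004329 and HEL_004330 lost their calls (adjusted p = 0.212 and 0.322) at log2 fold changes of 7.50 and 7.70. The count of IDs whose groups did not overlap was 591 of 8778 (6.73%). In settings added after seeing the data it was 601 of 8778 with median-of-ratios factors and 593 of 8856 with the mean count filter. Without a filter it was 827 of 12477, so the larger count went with a larger total. The interaction count of 0 became 11 with DESeq2 and 1 where number 1 libraries of himera and of petiverana were left out, and was 0 in the other settings, the replicate block included (427 at an unadjusted p under 0.05). Without 1 lativitta library, the interaction ranged from -0.21 to 0.72 for HEL_004329 and from 0.46 to 2.42 for HEL_004330. At 6 libraries, 26% of simulated 2-fold changes were recovered, so changes of that size were mostly not detectable.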

Other observations

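Reads assigned to no gene took similar shares in both wings of lativitta. Reads outside any annotated feature made up 27.2% ± 0.980 in HW and 27.3% ± 1.44 in FW, reads aligned at more than 1 place 24.8% ± 2.17 in HW and 25.5% ± 1.45 in FW, and reads overlapping more than 1 feature 1.63% ± 0.139 in HW and 1.54% ± 0.193 in FW (SD, n = 3 each). These differences were smaller than the spread between libraries. A count of 3 reads corresponds to 0.493 to 0.725 CPM on the TMM scale in the HW libraries and 0.327 to 0.641 CPM in the FW libraries, which is above every FW value of HEL_004329 and HEL_004330 and every HW value of HEL_000265.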
